A study of Mus musculus with 9 samples.

Results

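Genes of DNA replication and mitosis, 48 in all, were examined in neural crest cells of mouse embryos. They were chosen by name, from the helicase that opens DNA at replication origins to the motors and kinases of the spindle, by a rule that uses no measured value, although earlier results of these data were known when the names were picked. Of these, 47 stood under their own name in a table of 33495 genes, and Cdk1 was found by its gene ID, ENSMUSG00000019942, under the older name Cdc2a. All 48 had FPKM (fragments per kilobase of gene model and per fixed number of reads) in every group and reached 1 FPKM, as did 15395 genes compared for endothelin-1 and 15459 compared for the mutant.

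The cells came from C57BL/6 embryos at E9.5. Explants without head and tail recovered for 1 h, received the peptide endothelin-1 (ET-1) at 10 µM or PBS, and stayed in culture for 12 to 15 h before labelled crest cells were sorted. Groups of 3 samples each were compared: mutants that lack the transcription factor gene Mef2c in the crest, with ET-1, wild type with ET-1, and wild type with PBS. "With ET-1" and "with PBS" below mean wild type, and "the mutant" always had ET-1. A mutant with PBS was not analysed here, so an effect of the genotype alone and a different response to the peptide cannot be told apart. The table held 1 FPKM value per gene and group, so no spread between samples could be computed. The driver of the deletion and the number of embryos per sample are not stated in the sources used here.

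The cell cycle copies the genome in S phase and separates the copies in M phase. Before S phase, Cdc6 and Cdt1 load the MCM helicase on origins, cyclins D and E with their kinases release E2F transcription factors from the RB protein, and E2F activates the genes of replication. Genes of mitosis peak later, in G2 and M phase, and many hold a CHR element, a short motif bound by the DREAM and MYBL2-FOXM1 complexes, often with CCAAT boxes nearby. Crest cells at this age divide as they migrate, and those that become neurons leave the cycle.

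Promoters of the set were searched for these motifs. RefSeq (build GRCm38.p6) held promoter windows for 38 of the 48 genes, and the 250 bases before the start were searched on both strands, with matches that overlap counted for each motif. The E2F motif (TTTCCCGC or TTTGGCGC) was in 5 of 17 replication genes (29.4%) and 0 of 16 mitosis genes. It was in 1.51% of all 27025 genes, and 12 of the 17 replication genes had none. Only these 2 forms of the E2F motif, and for CHR only the form TTTGAA, were searched. A promoter counted as without a motif may therefore hold another form of it. The CHR motif (TTTGAA) was in 1 of 17 replication genes and 7 of 16 mitosis genes (43.8%), and in 18.3% of all genes. With the 50 bases after the start included, E2F was in 8 of 17 replication genes (47.1%), 0 of 16 mitosis genes and 1.80% of all genes, and CHR in 1 of 17, 11 of 16 (68.8%) and 20.2%. The difference between replication and mitosis genes was not tested. CCAAT was in 27 of the 38 genes (71.1%) and in 37.5% of all genes. The remaining 5 genes with a window belong to G1 and S phase, and Cdk2 is the one with an E2F motif.

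Promoters of Mcm5 and Mcm6, helicase subunits with an E2F motif, and of Cdk1 and Mki67, a mitotic kinase and a proliferation antigen with CHR motifs, are shown as examples of the 2 motifs. Capitals mark the searched forms of the E2F, CHR and CCAAT motifs.
Mcm5, chr8:75109259-75109508, plus strand: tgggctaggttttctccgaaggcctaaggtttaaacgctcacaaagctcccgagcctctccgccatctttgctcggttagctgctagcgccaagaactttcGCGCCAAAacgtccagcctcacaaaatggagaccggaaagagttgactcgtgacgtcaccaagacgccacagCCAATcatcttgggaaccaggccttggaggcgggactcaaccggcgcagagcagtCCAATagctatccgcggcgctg
Mcm6, chr1:128359706-128359955, minus strand: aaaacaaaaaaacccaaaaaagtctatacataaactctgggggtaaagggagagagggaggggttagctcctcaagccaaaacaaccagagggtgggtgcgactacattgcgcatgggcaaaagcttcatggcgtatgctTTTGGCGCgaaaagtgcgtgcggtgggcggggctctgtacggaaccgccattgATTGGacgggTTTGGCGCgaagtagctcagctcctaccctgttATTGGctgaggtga
Cdk1, chr10:69352913-69353162, minus strand: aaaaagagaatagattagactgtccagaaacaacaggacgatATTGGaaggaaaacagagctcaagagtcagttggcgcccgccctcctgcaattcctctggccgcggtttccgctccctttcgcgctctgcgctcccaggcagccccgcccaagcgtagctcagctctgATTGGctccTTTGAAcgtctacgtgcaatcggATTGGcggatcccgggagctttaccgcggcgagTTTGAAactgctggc
Mki67, chr7:135716380-135716629, minus strand: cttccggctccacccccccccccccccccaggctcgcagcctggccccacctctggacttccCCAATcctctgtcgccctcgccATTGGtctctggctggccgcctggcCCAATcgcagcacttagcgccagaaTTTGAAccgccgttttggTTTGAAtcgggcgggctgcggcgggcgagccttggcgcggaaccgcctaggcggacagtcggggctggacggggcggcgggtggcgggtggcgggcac
The E2F motif farthest from the start began 149 bases before it in Mcm5 and 110 bases before it in Mcm6. The farthest CHR motif began 71 bases before the start in Cdk1 and 116 bases before it in Mki67. A match describes letters only, and binding was not measured.

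**Figure D1:**
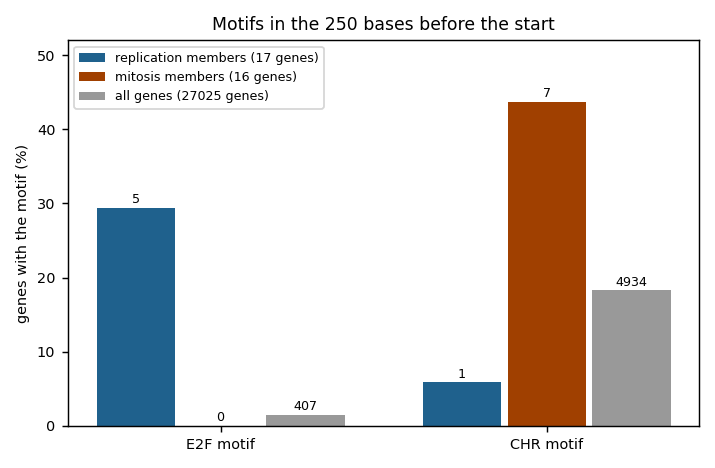
Share of genes (%) with an E2F or a CHR motif in the 250 bases before the start, for replication members, mitosis members and all genes of the RefSeq promoter table. The E2F motif was in 5 replication and 0 mitosis genes, and the CHR motif in 1 replication and 7 mitosis genes. Only 2 forms of the E2F motif, and for CHR only the form TTTGAA, were searched.

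The set was well expressed in all 3 groups. Its median level was 38.7 FPKM in the mutant, 36.6 FPKM with ET-1 and 35.1 FPKM with PBS, where the median over all measured genes was 6.70, 6.56 and 6.47 FPKM in the same groups. The most abundant member was Cdk4, and the least abundant were the E cyclins, Ccne1 in the mutant and Ccne2 in both wild-type groups. In 29 of the 48 genes the mutant value was the highest and the PBS value the lowest. How many of all genes had this order was not counted. Of all genes, 52.3% had higher values with ET-1 than with PBS, and 57.2% had higher values in the mutant than with ET-1. Depth was recovered from the steps of FPKM in genes with a single exon and came to 46930101 pooled reads in the mutant, 19801230 with ET-1 and 21507319 with PBS. A member rested on 1221 to 53904 reads in the mutant, 434 to 22072 with ET-1 and 372 to 25936 with PBS. The range in brackets after a ratio of FPKM is its 95% exact Clopper-Pearson interval from these reads. It treats reads as independent and holds nothing of the spread between embryos. Amplified reads are not independent molecules, so it may be too narrow even for counting error.

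**Figure D2:**
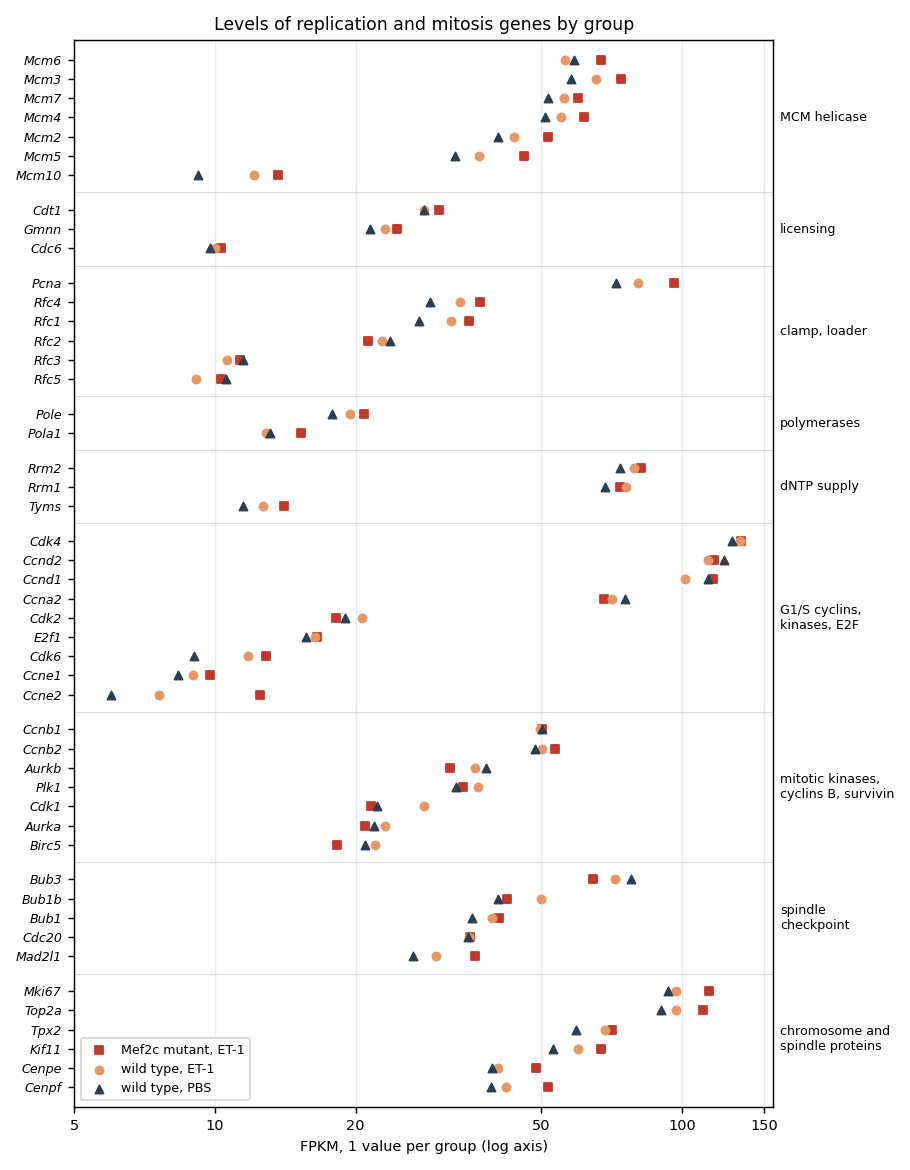
FPKM of the 48 genes (log axis, 1 value per group, no replicate error), ordered by role. Squares are the mutant with ET-1, circles wild type with ET-1 and triangles wild type with PBS. The 3 values lie close together for most genes, and Ccne2 has the widest spread, with 12.5, 7.59 and 5.99 FPKM.

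As a check of the labels, Mef2c stood at 10.1 FPKM in the mutant, 25.2 FPKM with ET-1 and 7.71 FPKM with PBS. It rose with ET-1 and fell in the mutant by the test described below. This fall was against wild type with ET-1 only, since the mutant value was 1.31 times the PBS value. Of 6 crest markers, 4 rose with ET-1 and 1, Ets1, fell in the mutant, with summed levels of 223, 224 and 145 FPKM in the mutant, ET-1 and PBS groups. The 6 neuron markers summed to 80.5, 68.9 and 92.8 FPKM in the same order, and 1 of them, Dcx, fell with ET-1 and rose in the mutant. Of 5 neural tube progenitor markers 2 were measured, Sox2 and Pax6, with sums of 48.7, 50.4 and 51.995 FPKM in that order. Neither passed the test in either comparison, and their part in the members' values was not tested. Of 4 muscle markers 1 was measured, Actc1, at 5.74, 4.59 and 2.87 FPKM. Summed over 4 measured genes each, erythroid markers reached 12.2, 24.1 and 27.1 FPKM, endothelial markers 1.83, 2.46 and 2.97 FPKM and epithelial markers 2.91, 4.09 and 5.94 FPKM, with Cdh5 and Cdh1 under 0.5 FPKM in every group. The macrophage gene Cd68 rose in the mutant, to 12.4 FPKM against 5.54 FPKM with ET-1, while Csf1r lay under 1 FPKM throughout.

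The first comparison was made to find genes that ET-1 changes in wild-type crest. None of the 48 passed the test, which required a Benjamini-Hochberg adjusted p under 0.05, computed over all genes from unadjusted p-values of the authors' deposited table. Among all 15395 genes, 0.533% passed, 0.39% higher and 0.143% lower. At an unadjusted p under 0.05 in the authors' deposited table, 2 members were higher and 0 lower, or 4.17% of the set against 4.51% of all genes (2.49% higher, 2.01% lower). No member reached a ratio of 1.5 either way, which 5.42% of all genes did (2.88% higher, 2.54% lower). Values with ET-1 exceeded those with PBS in 36 members, or 75%, against 52.3% of all genes, and the median log2 fold was 0.10 against 0.01. In bulk cells, fewer cells of a type and less RNA per cell cannot be told apart. All 6 neuron markers lay below their PBS values, and their part in the members' values was not tested.

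Ratios of ET-1 to PBS ran from 0.861 for Rfc5 to 1.32 for Mcm10, and 44 of 48 lay between 0.8 and 1.25. Counting intervals excluded 1 in 33 genes, with 27 above and 6 below. Both counts were made for members only, so no share of all genes stands beside them. Of 2664 genes with 20 to 80 FPKM in both groups, 10 were called higher, the smallest by 1.42-fold on the scale of FPKM + 1, and 1 was called lower. The 30 members in that range had folds of 0.927 to 1.25 on the same scale. How the deposited p-values treat the spread between embryos is not stated in the sources used here.

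The second comparison, of the mutant with wild type given the same peptide, was made to find genes that depend on Mef2c. Again 0 of 48 passed the test, against 4.94% of all 15459 genes, 1.18% higher and 3.75% lower. At an unadjusted p under 0.05 in the authors' deposited table, 1 member (Ccne2) was higher and 2 (Cdk1 and Bub1b) lower, or 6.25% of the set against 11.6% of all genes (4.45% higher, 7.12% lower). A ratio of 1.5 was passed by 1 member upward and 0 downward, against 10.5% of all genes (4.1% higher, 6.43% lower). Mutant values exceeded wild type in 37 members, or 77.1%, against 57.2% of all genes, with a median log2 fold of 0.10 against 0.05. Centred on the median of all genes 31 of the 48 lay above wild type, and 33 did with upper quartile scaling. The 57.2% was taken before either step. Shares of all genes after these steps are not given, here or beside such counts below. Of the neuron markers 5 of 6 lay above wild type, and their part was not tested.

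Ratios of the mutant to wild type ran from 0.770 for Cdk1 to 1.64 for Ccne2, and 45 lay between 0.8 and 1.25. Counting intervals excluded 1 in 39 genes, with 28 above and 11 below. These counts, too, were made for members only and have no share of all genes beside them. Among 2627 genes with 20 to 80 FPKM in both groups, the smallest called rise was 1.40-fold and the called fall nearest to level was to 0.769 of wild type, on the scale of FPKM + 1. The 28 members in that range lay between 0.778 and 1.24.

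**Figure D3:**
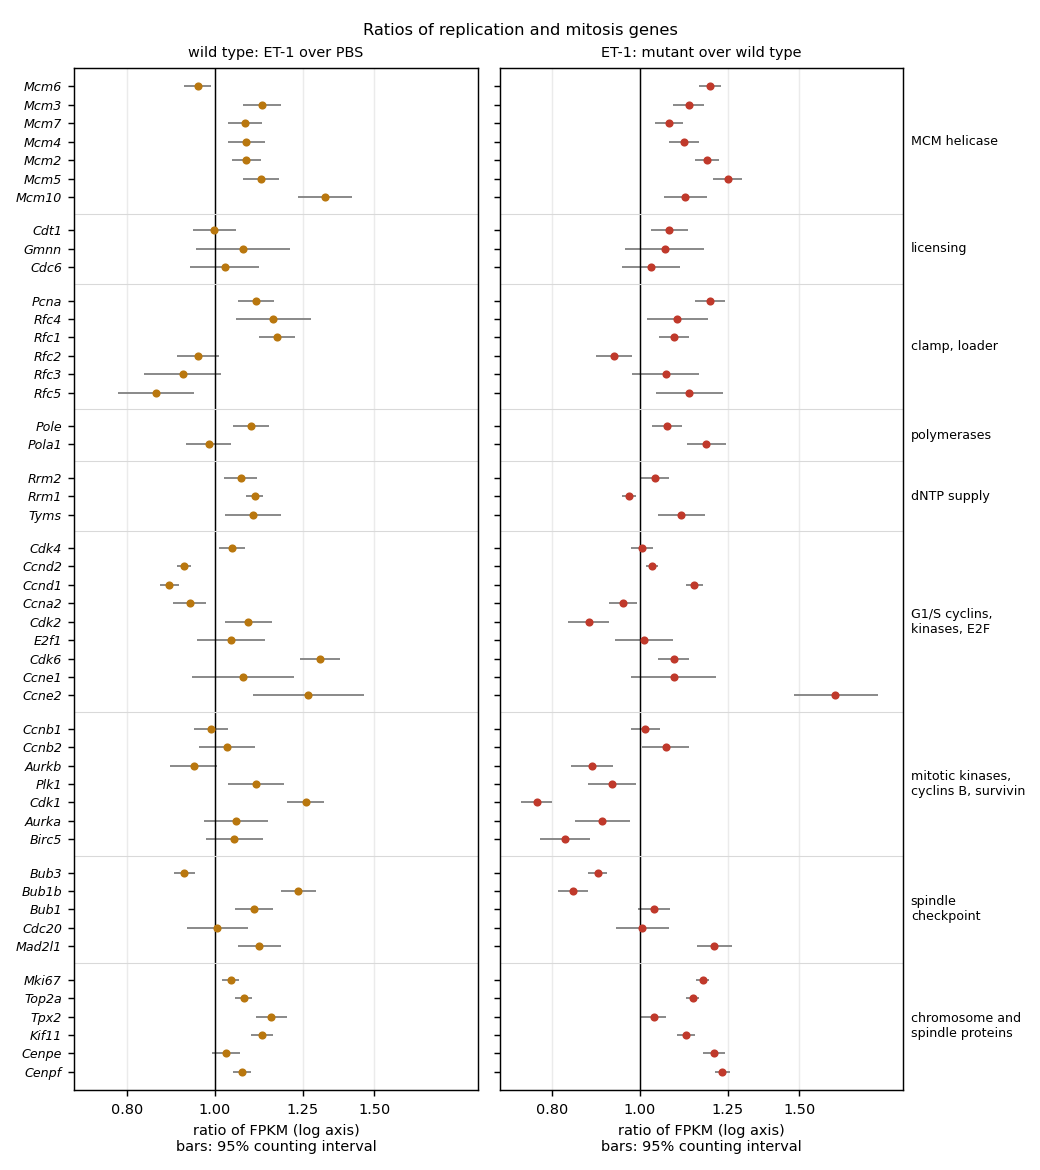
Ratio of FPKM for each of the 48 genes (log axis), ET-1 over PBS in wild type on the left and mutant over wild type with ET-1 on the right, with 95% counting intervals as bars. Ratios to PBS run from 0.861 to 1.32 and ratios of mutant to wild type from 0.770 to 1.64, and no member passed the test in either comparison.

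The MCM helicase unwinds DNA ahead of the fork. With Mcm10, which works beside it, all 7 genes of this role had higher values in the mutant than with ET-1 (median log2 fold 0.18), also after centring and upper quartile scaling, and 6 of 7 had higher values with ET-1 than with PBS (median 0.11). Mcm5 stood at 45.9 FPKM in the mutant, 36.8 FPKM with ET-1 and 32.7 FPKM with PBS. Its mutant ratio was the highest of the 7 at 1.250 (1.21 to 1.297), with an adjusted p of 0.592 after adjustment of the authors' deposited table. Mcm6 was the exception with ET-1, at 67.0 FPKM in the mutant, 56.1 FPKM with ET-1 and 58.6 FPKM with PBS, a ratio to PBS of 0.957 (0.926 to 0.990) and a mutant ratio of 1.19 (1.16 to 1.23). Mcm7 lay nearest to wild type in the mutant, at 59.998 FPKM in the mutant, 55.7 FPKM with ET-1 and 51.6 FPKM with PBS and a ratio of 1.08 (1.04 to 1.12), but has 23.3% of its 50-base words in common with other genes, so the split of its reads is uncertain. The other ring subunits had the same order of groups as Mcm5. Mcm2 stood at 51.7, 43.7 and 40.3 FPKM, Mcm3 at 73.9, 65.3 and 57.9 FPKM and Mcm4 at 61.7, 55.2 and 50.9 FPKM in the mutant, ET-1 and PBS groups.

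Mcm10, which joins the helicase as origins fire, had the highest ratio to PBS of the whole set. The gene lies at chr2:4910759-4933837 (mm9). It stood at 13.6 FPKM in the mutant, 12.1 FPKM with ET-1 and 9.18 FPKM with PBS, with a ratio of ET-1 to PBS of 1.32 (1.23 to 1.42) and of mutant to wild type of 1.12 (1.06 to 1.18). The p for ET-1 was 0.0240 in the authors' deposited table, and 0.833 once adjusted by Benjamini-Hochberg. The authors' deposited list of 406 genes induced by ET-1 holds Mcm10 with a normalized fold of 1.31, a mark for a MEF2 motif and none for dependence on MEF2C.

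Licensing genes had ratios near 1. Cdt1, a loader of the helicase, stood at 30.1 FPKM in the mutant, 27.98 FPKM with ET-1 and 28.02 FPKM with PBS, with ratios of 0.999 (0.945 to 1.06) for ET-1 and 1.08 (1.03 to 1.13) for the mutant. Its inhibitor Gmnn stood at 24.6 FPKM in the mutant, 23.1 FPKM with ET-1 and 21.5 FPKM with PBS, with a ratio to PBS of 1.07 (0.952 to 1.21). Cdc6, the other loader, stood at 10.3 FPKM in the mutant, 10.01 FPKM with ET-1 and 9.76 FPKM with PBS, with a mutant ratio of 1.03 (0.955 to 1.11). Of the 3 genes 3 lay above wild type in the mutant, 2 after centring.

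At the fork, the sliding clamp Pcna stood at 95.9 FPKM in the mutant, 80.3 FPKM with ET-1 and 72.3 FPKM with PBS. Its mutant ratio was 1.19 (1.15 to 1.24), with an adjusted p of 0.750 from the authors' deposited table, and 19.1% of its words are shared, with the processed copy Pcna-ps2. The clamp loader was divided with ET-1. Rfc1 had the highest ratio to PBS, 1.17 (1.12 to 1.23), at 34.9 FPKM in the mutant, 32.0 FPKM with ET-1 and 27.3 FPKM with PBS, and Rfc5 the lowest of the whole set, 0.861 (0.782 to 0.949), at 10.3 FPKM in the mutant, 9.10 FPKM with ET-1 and 10.6 FPKM with PBS. Rfc2 alone lay below wild type in the mutant, at 21.3 FPKM in the mutant, 22.7 FPKM with ET-1 and 23.7 FPKM with PBS and a ratio of 0.936 (0.894 to 0.981). Loader subunits Rfc3 and Rfc4 stood at 11.3, 10.6 and 11.5 FPKM and at 36.9, 33.5 and 28.9 FPKM in the mutant, ET-1 and PBS groups.

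Both polymerases had higher values in the mutant than with ET-1. Pola1, which starts strands with primase, stood at 15.3 FPKM in the mutant, 12.9 FPKM with ET-1 and 13.1 FPKM with PBS, with a mutant ratio of 1.18 (1.13 to 1.24) and a ratio to PBS of 0.985 (0.930 to 1.04). Pole, the leading strand polymerase, stood at 20.9 FPKM in the mutant, 19.5 FPKM with ET-1 and 17.8 FPKM with PBS, with a mutant ratio of 1.07 (1.03 to 1.11) and a ratio to PBS of 1.10 (1.05 to 1.15). Genes of deoxynucleotide supply had higher values with ET-1 than with PBS in 3 of 3 cases, against 52.3% of all genes. Rrm1, the large subunit of ribonucleotide reductase, stood at 73.7 FPKM in the mutant, 75.8 FPKM with ET-1 and 68.5 FPKM with PBS, with a mutant ratio of 0.973 (0.956 to 0.990) and a ratio to PBS of 1.11 (1.08 to 1.13). Its partner subunit Rrm2 stood at 81.8 FPKM in the mutant, 78.8 FPKM with ET-1 and 73.8 FPKM with PBS, with a mutant ratio of 1.04 (1.002 to 1.08) and a ratio to PBS of 1.07 (1.023 to 1.11). Rrm1 was the one of the pair with its highest value with ET-1. Tyms, which makes thymidylate, stood at 14.1 FPKM in the mutant, 12.7 FPKM with ET-1 and 11.5 FPKM with PBS, with a mutant ratio of 1.11 (1.05 to 1.18).

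Among cyclins and kinases of G1 and S phase, 7 of 9 lay above wild type in the mutant, but 4 after centring and 5 with upper quartile scaling. Cdk4, the kinase partner of D cyclins, stood at 134 FPKM in the mutant, 133 FPKM with ET-1 and 128 FPKM with PBS, with ratios of 1.006 (0.978 to 1.03) for the mutant and 1.04 (1.0097 to 1.08) for ET-1. The related kinase Cdk6 had the highest ratio to PBS, 1.31 (1.24 to 1.37), at 12.8 FPKM in the mutant, 11.8 FPKM with ET-1 and 9.02 FPKM with PBS. Ccnd1 had the lowest, 0.890 (0.869 to 0.912), at 116 FPKM in the mutant, 101 FPKM with ET-1 and 114 FPKM with PBS. Its relative Ccnd2 also lay below PBS, at 117 FPKM in the mutant, 114 FPKM with ET-1 and 123 FPKM with PBS. Cdk2, the kinase of S phase entry, had the lowest mutant ratio, 0.878 (0.834 to 0.925), at 18.1 FPKM in the mutant, 20.6 FPKM with ET-1 and 19.0 FPKM with PBS. E2f1, an activator of replication genes, stood at 16.5 FPKM in the mutant, 16.3 FPKM with ET-1 and 15.7 FPKM with PBS. Ccna2, the S phase cyclin, stood at 67.9 FPKM in the mutant, 70.9 FPKM with ET-1 and 75.6 FPKM with PBS.

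Ccne2, an E cyclin that activates Cdk2, was the member with the largest difference. The gene lies at chr4:11118497-11131926 (mm9). It stood at 12.5 FPKM in the mutant, 7.59 FPKM with ET-1 and 5.99 FPKM with PBS, on 1690, 434 and 372 pooled reads, so the mutant value was the highest and the PBS value the lowest. Mutant over wild type was 1.64 (1.48 to 1.83), with a p of 0.00361 in the authors' deposited table and 0.0682 after Benjamini-Hochberg adjustment. The adjusted value was 0.0769 with no filter on low values and 0.0510 with 5 FPKM required, so it missed the threshold each time. The ratio of ET-1 to PBS was 1.27 (1.10 to 1.46). Ccne1, its relative, stood at 9.77 FPKM in the mutant, 8.97 FPKM with ET-1 and 8.35 FPKM with PBS. Of the 50-base words of Ccne2, 14.4% occur in Ints8, a subunit gene of the Integrator complex. Ints8 lies at chr4:11126304-11181405 (mm9), so the genes overlap, and reads with those words cannot be assigned to either gene with certainty. Ints8 stood at 16.9 FPKM in the mutant, 13.7 FPKM with ET-1 and 14.9 FPKM with PBS.

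Mitotic kinases, B cyclins and survivin were the group with most values below wild type in the mutant, 5 of 7, or 6 of 7 after centring and with upper quartile scaling, at a median log2 fold of -0.13. Before centring, 19 of 21 replication genes lay above wild type, against 57.2% of all genes. Whether the group of mitotic kinases, B cyclins and survivin differs from them was not tested. Cdk1, the kinase that starts mitosis, lies at chr10:68799382-68815686 (mm9) and shares no 50-base word with another gene. It stood at 21.5 FPKM in the mutant, 27.98 FPKM with ET-1 and 22.2 FPKM with PBS, so the ET-1 value lay above both others. The mutant ratio was 0.770 (0.740 to 0.801), with a p of 0.00749 in the authors' deposited table and an adjusted p of 0.122, or 0.0933 to 0.137 under other filters. The ratio of ET-1 to PBS was 1.26 (1.20 to 1.32), with a p of 0.0612 in the authors' deposited table.

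Birc5, which encodes survivin, stood at 18.2 FPKM in the mutant, 22.04 FPKM with ET-1 and 21.0 FPKM with PBS, with a mutant ratio of 0.827 (0.777 to 0.881) and an adjusted p of 0.442 from the authors' deposited table. Aurkb, the kinase that works with survivin at the centromere, had the lowest ratio to PBS, 0.947 (0.893 to 1.005), at 31.9 FPKM in the mutant, 36.0 FPKM with ET-1 and 38.0 FPKM with PBS. The centrosomal kinase Aurka stood at 21.0, 23.1 and 21.8 FPKM and Plk1, a kinase of spindle assembly, at 34.0, 36.5 and 32.9 FPKM in the mutant, ET-1 and PBS groups. The B cyclins, which activate Cdk1, lay just above wild type in the mutant. Ccnb2 stood at 53.5 FPKM in the mutant, 50.1 FPKM with ET-1 and 48.5 FPKM with PBS, with a mutant ratio of 1.07 (1.006 to 1.13). Ccnb1, the most abundant of this role with PBS, stood at 50.2 FPKM in the mutant, 49.6 FPKM with ET-1 and 50.04 FPKM with PBS, with ratios of 1.013 (0.977 to 1.05) for the mutant and 0.991 (0.949 to 1.03) for ET-1, and shares 23.4% of its words, most with Ccnb1-ps.

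The spindle checkpoint delays anaphase until chromosomes are attached, and its genes lay on both sides. Bub1b, the kinase BUBR1, lies at chr2:118423946-118467327 (mm9) and stood at 42.2 FPKM in the mutant, 49.98 FPKM with ET-1 and 40.4 FPKM with PBS. Its mutant ratio was 0.843 (0.813 to 0.875), with a p of 0.0315 in the authors' deposited table and 0.328 after adjustment. Its ratio of ET-1 to PBS was 1.24 (1.18 to 1.29), with a p of 0.0425 in the authors' deposited table and an adjusted p of 1. Like Cdk1, Bub1b had its highest value with ET-1, and since both ratios use that one value they are not separate evidence. The authors' deposited list gives Bub1b a normalized fold of 1.21 and marks it as dependent on MEF2C. With Mcm10 it is 1 of 2 members listed, or 4.17% of the set, against 2.49% of all genes tested. The list reaches down to a fold of 1.20, with 83.3% marked for a MEF2 motif and 18.0% for dependence.

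Mad2l1, which with BUBR1 and Bub3 restrains Cdc20, had the highest mutant ratio of the checkpoint, 1.21 (1.16 to 1.26), at 36.0 FPKM in the mutant, 29.8 FPKM with ET-1 and 26.6 FPKM with PBS. Bub3 stood at 64.5 FPKM in the mutant, 71.9 FPKM with ET-1 and 77.6 FPKM with PBS, with a mutant ratio of 0.898 (0.877 to 0.919) and a ratio to PBS of 0.926 (0.902 to 0.951), so the PBS value was the highest. Cdc20, the activator of anaphase, and the kinase Bub1 stood at 35.2, 34.98 and 34.8 FPKM and at 40.6, 39.2 and 35.5 FPKM in the mutant, ET-1 and PBS groups. Above wild type in the mutant were 3 of 5 genes, or 2 of 5 after centring or scaling.

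Proteins of mitotic chromosomes and the spindle had higher values in the mutant in 6 of 6 genes (median log2 fold 0.21) and higher values with ET-1 than with PBS in 6 of 6 (median 0.10), also under both scalings. Mki67, which coats mitotic chromosomes and serves as a marker of proliferation, stood at 114 FPKM in the mutant, 97.3 FPKM with ET-1 and 93.5 FPKM with PBS, with ratios of 1.17 (1.15 to 1.19) for the mutant and 1.04 (1.019 to 1.06) for ET-1. Cenpf, a kinetochore protein, had the highest mutant ratio of these genes, 1.23 (1.21 to 1.26), at 51.7 FPKM in the mutant, 41.9 FPKM with ET-1 and 39.1 FPKM with PBS, and an adjusted p of 0.513 from the authors' deposited table. Tpx2, a spindle assembly factor, had the lowest mutant ratio, 1.04 (1.004 to 1.07), and the highest ratio to PBS, 1.15 (1.11 to 1.20), at 70.9 FPKM in the mutant, 68.4 FPKM with ET-1 and 59.2 FPKM with PBS. Cenpe, a kinetochore motor, was nearest to PBS with ET-1, at 48.6 FPKM in the mutant, 40.3 FPKM with ET-1 and 39.2 FPKM with PBS and a ratio of 1.03 (0.993 to 1.06). Top2a, which untangles sister chromatids, and the spindle motor Kif11 stood at 111, 97.0 and 90.1 FPKM and at 67.2, 59.8 and 53.0 FPKM in the mutant, ET-1 and PBS groups.

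Length and shared sequence were set beside the mutant ratios. Spearman's rho between the log2 fold and GENCODE M21 exon length was 0.26 over the 48 genes and 0.10 over 11855 protein-coding genes, a description only, since genes of one library share its depth and handling. Of the 48 genes, 11 share over 10% of their 50-base words with other genes and 21 under 1%, with a rho of 0.08 between that share and the fold. Their part in the members' values was not tested further.

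Other genes of these pathways were counted beside the share called among all genes. With ET-1, 0 of 40 other replication genes, 0 of 47 other mitosis genes and 0 of 22 genes of E2F, RB and CDK inhibitors passed the test, against 0.533% of all genes, with median log2 folds of 0.15, 0.07 and 0.03. At an unadjusted p under 0.05 in the authors' deposited table, 0, 0 and 1 of them were higher and 0 lower. In the mutant, 1 of 40 rose, 1 of 47 fell and 0 of 22 passed, against 1.18% of all genes higher and 3.75% lower, with medians of 0.05, 0.0041 and 0.05. At an unadjusted p under 0.05 in the authors' deposited table, 1 of the 40 was higher and 2 lower, 0 of the 47 higher and 1 lower, and 1 of the 22 higher and 1 lower, against 4.45% of all genes higher and 7.12% lower. The 2 lower replication genes were Rpa1, a subunit of the protein that coats single-stranded DNA, and Tk1, the thymidine kinase. Rpa1 stood at 12.2 FPKM in the mutant, 16.2 FPKM with ET-1 and 13.4 FPKM with PBS, and Tk1 at 7.12, 9.48 and 7.94 FPKM, with adjusted p of 0.0831 and 0.209 for the mutant, from the authors' deposited table. Dnmt1, which maintains DNA methylation after replication, and Cks1b, a subunit of CDK complexes, were the most abundant by their PBS value in the lists of replication and mitosis. They stood at 66.3, 61.4 and 57.4 FPKM and at 66.2, 69.2 and 78.8 FPKM in the mutant, ET-1 and PBS groups.

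Ung was the replication gene that rose, and encodes the glycosylase that removes uracil from new DNA. It stood at 18.5 FPKM in the mutant, 9.29 FPKM with ET-1 and 8.72 FPKM with PBS, so the mutant lay above both wild-type groups. The ratio of the mutant to wild type with ET-1 was 1.99 (1.86 to 2.14), and the Benjamini-Hochberg value from the authors' deposited table was 0.000360. Pttg1 was the mitosis gene that fell, and encodes securin, the inhibitor of separase that is destroyed at anaphase. Its level was 17.6 FPKM in the mutant, 28.1 FPKM with ET-1 and 27.8 FPKM with PBS, a ratio of 0.625 (0.579 to 0.675) to wild type with ET-1, and its adjusted value from the authors' deposited table was 0.00340. Both calls held with no filter and with 5 FPKM required. The genes share 0.182% (Ung) and 0% (Pttg1) of their words with others.

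Of the listed regulators of the cycle, none of which was called, the most abundant and some picked by their values are given here. Cdkn1c, which encodes the CDK inhibitor p57, was the most abundant of its list by its PBS value, at 61.0 FPKM in the mutant, 67.5 FPKM with ET-1 and 81.0 FPKM with PBS. Cdkn1b, which encodes p27, stood at 12.5, 16.9 and 20.1 FPKM in the same groups (adjusted p of 0.118 for the mutant, from the authors' deposited table). The growth regulator Myc stood at 18.2, 12.2 and 8.29 FPKM (adjusted p of 0.182 for the mutant and 0.971 for ET-1, from the authors' deposited table). Cdkn1b, Myc, Rpa1 and Tk1 were picked after their values were seen. Cdkn1a and Cdkn2d, the other CDK inhibitors with FPKM of 1 or more, also lay below wild type in the mutant. Their ratios were 0.893 and 0.717, and the inhibitors were not tested as a class. The remaining regulators lay on both sides of wild type in the mutant, so Cdkn1b and Myc do not stand for the whole list.

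Histone genes were taken by name (Hist1h, Hist2h, Hist3h or Hist4h), a rule meant for those expressed with replication. Most had lower values in the mutant. Of 62 tested, 49 fell and 0 rose, against 3.75% of all genes lower, and the median log2 fold was -0.84, against 0.13 over the 21 replication members. Hist1h2bl, the most abundant in both wild-type groups, stood at 596 FPKM in the mutant, 998 FPKM with ET-1 and 944 FPKM with PBS. Hist1h4d, the most abundant in the mutant, did not pass the test, at 799 FPKM in the mutant, 856 FPKM with ET-1 and 758 FPKM with PBS (adjusted p of 0.808 for the mutant, from the authors' deposited table). With ET-1, 0 of 63 passed the test, 4 were higher at an unadjusted p under 0.05 in the authors' deposited table, and the median was 0.11. Many of these genes are near-identical copies, so the split of reads among them is uncertain and the 49 falls are not independent of each other. Protein-coding genes with under 2000 bases of exon had a middle value of -0.03 for mutant over wild type on the log2 scale. Over all lengths it was 0.06. The part of gene length in the lower histone values was not tested.

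**Figure D4:**
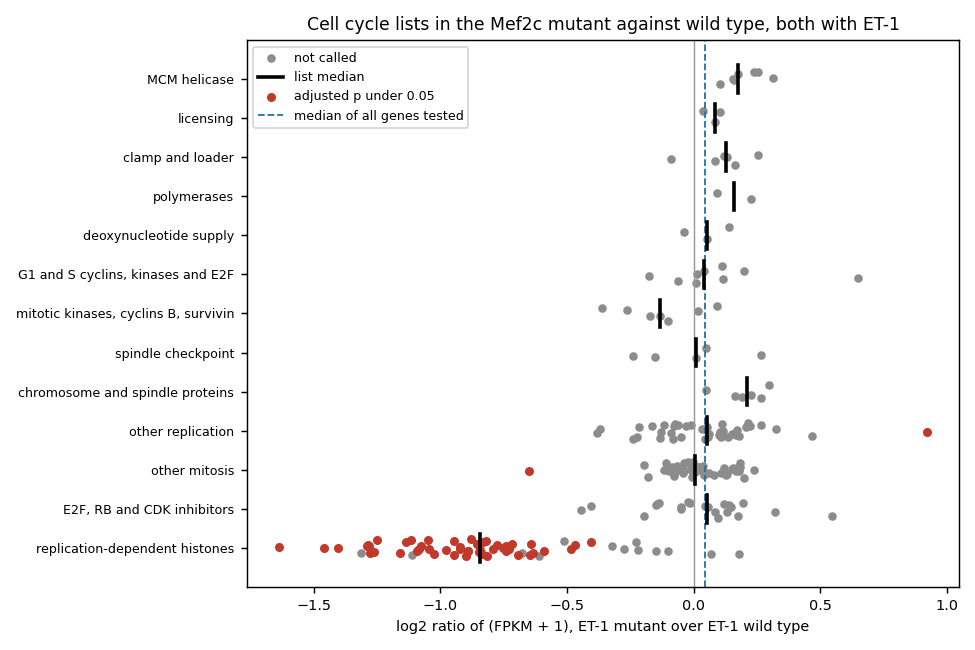
Log2 ratio of FPKM + 1 in the mutant over wild type, both with ET-1, for each gene of the 9 roles of the set and of 4 further lists. Red points passed the test, black bars are list medians and the dashed line is the median of all genes tested (0.05). Red points are Ung, Pttg1 and 49 of 62 histone genes.

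The mutant was also set beside wild type with PBS, without a test. Mutant values exceeded PBS in 37 of the 48 genes, against 58% of all genes, with a median log2 fold of 0.19 against 0.06. A ratio of 1.5 was passed by 1 member upward, Ccne2 at 2.08 (1.86 to 2.34), and 0 downward, against 12.3% of all genes (5.21% higher, 7.11% lower). All 7 MCM genes lay above PBS, with a median log2 fold of 0.35, led by Mcm10 at 1.48 (1.40 to 1.57) and Mcm5 at 1.41 (1.35 to 1.46). Bub3 and Aurkb had the lowest ratios, 0.831 (0.813 to 0.8501) and 0.839 (0.798 to 0.882). These values use the same samples as the 2 comparisons above.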

How the data were processed

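RNA from sorted cells was extracted with the RNeasy Micro kit and amplified and made into libraries with NuGEN kits, per the labels' protocols. The submitters' processing notes name TopHat 1.3.1, Cufflinks 1.3.0, Cuffdiff and mm9, with no settings. Per the file headers, the table of all genes holds 1 FPKM for each group and an unadjusted p-value for each of 2 comparisons, all made by the authors. A second table by the authors lists genes induced by ET-1, with a normalized fold (a ratio), a p-value and yes or no marks.

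Values by sample, for which a limma fit was planned, were not at hand, so the deposited p-values were used. Wild-type entries of 15639 genes were whole numbers with a p of 1 and were not read as FPKM. The p-values were adjusted (Benjamini-Hochberg) across genes that had FPKM in the 2 groups compared, 1 FPKM or more in one of them. Log2 folds are of FPKM + 1. In single-exon genes, 93.4%, 93.3% and 93.2% of 1382 values in the mutant, with ET-1 and with PBS came out as whole reads within 0.02. The model length of a member was the one that gave whole reads in all 3 groups within 0.005 and lay nearest to its GENCODE M21 exon length; with another length the ratio would stand and only its interval would be wider or narrower. Reads and adjustment were tested on simulated data. Columns of other samples numbered 0. The members and lists were chosen with earlier results of these data known. Given in full, by rule, were members called or, within a role, most abundant with PBS or highest or lowest in fold; of other lists, called genes and the most abundant. Python 3.11.15, pandas 2.3.3 and scipy 1.17.1 were used.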

Additional observations from a re-analysis of the deposited data

How the results depend on the processing

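The number of members called stayed at 0 in both comparisons with no filter on low values, with 5 FPKM required, and with a 1.5-fold change required as well. At an unadjusted p under 0.05 it was 2 for the ET-1 comparison and 3 for that of the mutant. The members' median log2 fold of ET-1 over PBS was 0.10, and 0.08 to 0.10 under other settings. For mutant over wild type it was 0.10, and 0.05 to 0.10. For mutant over PBS it was 0.19, and 0.13 when folds were centred on the median of all genes, which subtracts 0.06. Of 144 single folds, 39 moved beyond their counting error under centring, 16 under upper quartile scaling and 0 with a pseudocount of 0.1 FPKM. Leaving out samples was not run, because values were held by group. No paired analysis was possible because the columns are group values and the sample numbers are not shared between groups. Pooled reads of the mutant were 2.37 times those of wild type with ET-1, so counting error was smallest there.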
